A study of Mus musculus with 9 samples.

Results

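The 6 genes Myl4, Myl7, Sln, Kcnj3, Tbx5 and Pam are expressed more strongly in atrial than in ventricular heart muscle, and they were followed through 9 libraries made from mouse hearts. They were taken by symbol from a deposited table of 21989 genes, and all 6 were found. They were chosen by their known atrial enrichment with their FPKM in each of these libraries in view, so that their differences are given as a description and no test of them is read. The hearts came from male C57BL/6J mice aged 18 to 20 weeks, with 3 mice in each of 3 groups. Sham mice had a mock operation and were given distilled water. TAC mice, whose operation is usually taken to be transverse aortic constriction, which raises the pressure the left ventricle works against, also had distilled water. LD mice had the TAC operation and received a herbal medicine, Lingguizhugan decoction. No transgene, deletion or cell line is involved, and every mouse was of the same strain and sex. How much of the atria each heart sample held, how long the treatment ran or whether mice shared a litter or an operation day is not stated in the labels, so that p-values measure the spread between these 9 libraries only. By its title the study asks how the decoction acts in heart failure through the MAPK and AKT pathways.

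Atrial and ventricular muscle cells use different forms of several sarcomere and membrane proteins. Myl7 and Myl4 are the regulatory and the essential myosin light chain of the atria, where the ventricle uses Myl2 and Myl3, and Sln (sarcolipin) is a small inhibitor of the calcium pump of the sarcoplasmic reticulum, where the ventricle relies on phospholamban (Pln). Kcnj3 is the pore subunit GIRK1 of the potassium channel through which the vagus nerve slows the heart, Tbx5 is a T-box transcription factor of the atria, the conduction system and the left ventricle, and Pam is the enzyme that amidates peptide hormones and the main membrane protein of the granules in which atrial cells store natriuretic peptide. Some atrial genes, with Nppa the best known, are also switched on in ventricular muscle under load. In bulk tissue, fewer cells of a type and less RNA per cell cannot be told apart.

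Start-region sequences of 300 bases, from 250 bases before to 50 bases after the annotated start, were found for 4 of the 6 members in the RefSeq table (GRCm38.p6). Those of Myl7, Myl4 and Kcnj3 are shown because the first pair had its highest value and the other its lowest in the same library. They read 5′ to 3′ on the gene's own strand, at chr11:5898733-5899032 on the minus strand for Myl7, chr11:104550413-104550712 on the plus strand for Myl4 and chr2:55435720-55436019 on the plus strand for Kcnj3, and capitals mark motif matches.
Myl7: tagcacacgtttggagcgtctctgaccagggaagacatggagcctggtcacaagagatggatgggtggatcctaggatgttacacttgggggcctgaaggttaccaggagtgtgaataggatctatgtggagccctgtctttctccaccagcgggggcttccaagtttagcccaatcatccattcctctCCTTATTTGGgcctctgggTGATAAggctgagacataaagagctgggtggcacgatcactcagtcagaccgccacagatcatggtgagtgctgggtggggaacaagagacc
Myl4: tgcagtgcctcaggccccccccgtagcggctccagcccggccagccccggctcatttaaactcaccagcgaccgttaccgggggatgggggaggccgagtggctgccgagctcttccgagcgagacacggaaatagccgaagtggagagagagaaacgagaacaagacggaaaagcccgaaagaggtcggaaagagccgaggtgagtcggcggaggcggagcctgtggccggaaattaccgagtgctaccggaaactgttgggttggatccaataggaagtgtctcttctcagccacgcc
Kcnj3: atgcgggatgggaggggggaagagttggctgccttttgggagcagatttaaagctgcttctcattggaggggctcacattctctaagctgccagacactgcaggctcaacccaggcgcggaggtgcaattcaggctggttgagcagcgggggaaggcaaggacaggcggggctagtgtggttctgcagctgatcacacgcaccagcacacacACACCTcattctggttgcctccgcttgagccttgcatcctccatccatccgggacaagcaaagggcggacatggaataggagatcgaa
Both strands were searched for AGGTGT (the core of a T-box site), AGATAA and TGATAA (forms of the GATA site, the latter added after the sequences had been read), the MEF2 site and the CArG box, which binds serum response factor. The Myl7 window held a CArG box, CCTTATTTGG, at 61 to 52 bases before the start, and TGATAA at 42 to 37 bases before it, with no overlap between them. In the Kcnj3 window AGGTGT lay on the opposite strand, printed as ACACCT, at 38 to 33 bases before the start, and the windows of Myl4 and Pam held none of the 5 motifs. Of 27025 start regions of the same length, 1.6% held a CArG box, 9.3% TGATAA, 13.9% AGGTGT, 11.4% AGATAA and 3.3% a MEF2 site. A match is a string of letters in this window and says nothing about binding in these hearts.

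Library totals, recovered from the steps of the FPKM values (fragments divided by gene length and library size), lay between 4.48 and 18.1 M fragments, with TAC replicate 3 the shallowest and LD replicate 2 the deepest. Replicates of a group correlated between 0.913 and 0.973 across genes (Pearson's r of log2 values), and the lowest of these values was in TAC. Steps of 0.5 fragments were counted over values above 0 of 227 genes, those whose annotated exon length gave steps of 1 or 0.5 fragments in every library. In 4 libraries (sham replicates 1 and 3, TAC replicates 2 and 3) between 14.6 and 20.5% of these values lay on steps of 0.5 fragments, against at most 0.532% in the 5 others, to which all 3 LD libraries belong. If a step of 0.5 is read as 1 fragment, the totals of these 4 libraries become 8.96 to 18.12 M, LD replicate 1 is the shallowest (7.43 M) and sham replicate 1 the deepest, and the depth limits and intervals given for these libraries become narrower. LD replicate 3 was the lowest of the 9 libraries for 31.1% of 11380 tested genes and the highest for 10.2%, and TAC replicate 3 was the highest for 27.3%. The members were read with and without LD replicate 3 for this reason. Pan-cardiomyocyte genes also stood high in LD replicate 3, where 6 of 10 had their highest value, and their part in the members' values was not tested.

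The members did not move as a group but in 3 patterns, and in 2 of these LD replicate 3 held the extreme values. Myl7, Myl4 and Sln had their highest values in LD replicate 3. Kcnj3 and Tbx5 had their lowest values in that same library. Pam was high in TAC replicate 2, TAC replicate 3 and LD replicate 3, the libraries in which the load-induced peptide gene Nppa was highest as well.

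**Figure D1:**
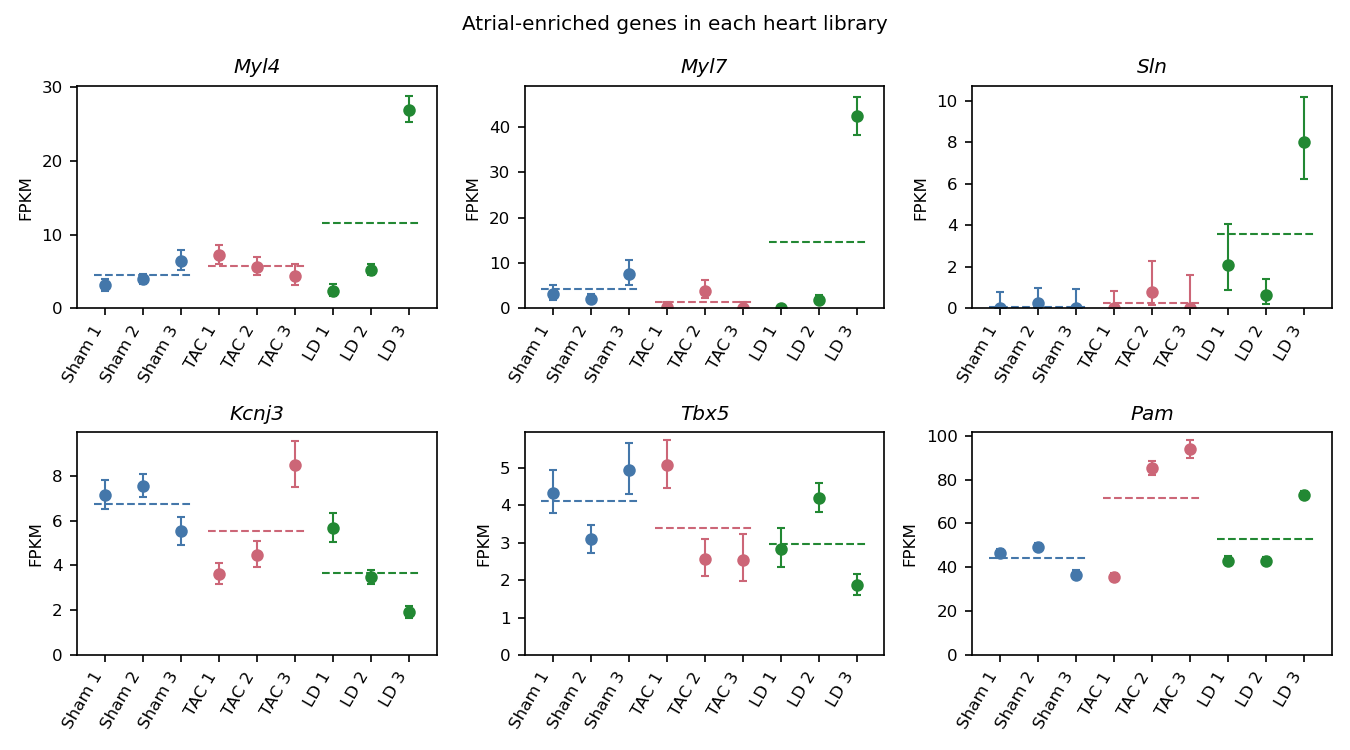
FPKM of each gene (y axis, from 0, a scale for each panel) in the 9 libraries (x axis), coloured by group. Bars are exact Poisson 95% intervals of counting error and dashed lines are group means. Myl7 reaches 42.3 in LD replicate 3 and at most 7.51 elsewhere, while Kcnj3 and Tbx5 are lowest in that library.

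Myl7 (ENSMUSG00000020469.8) lies on chromosome 11 from 5896637 to 5898782 on the minus strand of GRCm38, and its recovered length of 590 bases equals its annotated exons. Its FPKM was 3.18, 1.98 and 7.51 in sham replicates 1, 2 and 3, 0.403, 3.87 and 0 in TAC, and 0, 1.88 and 42.3 in LD. LD replicate 3 thus stood 5.63 times above the next library, sham replicate 3, while the other LD libraries lay at or under the lowest sham value and the TAC values reached into the sham range. These values rest on few fragments: 17, 17 and 33 in sham, 2, 17 and 0 in TAC, and 0, 20 and 401 in LD. Where Myl7 was at 0, a count of 3 fragments would be an FPKM of 1.13 in TAC replicate 3 and 0.685 in LD replicate 1, so that a low level there was not detectable at this depth. The exact Poisson interval of LD replicate 3, which covers counting error only, ran from 38.3 to 46.7. Group means were 4.23 ± 2.91 (SD, n = 3) in sham, 1.43 ± 2.13 in TAC and 14.7 ± 23.9 in LD, and the LD mean was 0.938 without replicate 3. On the scale of log2(FPKM + 1), which understates changes of low genes, Myl7 differed by -1.32 ± 1.01 (limma's standard error) for TAC against sham, 1.40 ± 1.01 for LD against TAC and 0.08 ± 1.01 for LD against sham. Without LD replicate 3 the differences of LD were -0.16 against TAC and -1.48 against sham. With a term for the steps of 0.5 fragments they were 1.95 and 0.63.

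Myl4 (ENSMUSG00000061086.12) lies on the same chromosome, from 104550663 to 104595753 on the plus strand. Its FPKM was 3.11, 3.94 and 6.45 in sham, 7.22, 5.67 and 4.44 in TAC, and 2.35, 5.26 and 27.0 in LD, for replicates 1, 2 and 3. Myl4 was above 0 in every library, with 36 to 892 fragments, and LD replicate 3 stood 3.74 times above the next library, TAC replicate 1. Over the 8 other libraries its values ran from 2.35 to 7.22, a range in which the groups overlapped. Means were 4.50 ± 1.74 (SD, n = 3), 5.78 ± 1.39 and 11.5 ± 13.4 in sham, TAC and LD, and the LD mean without replicate 3 was 3.81. The log2 difference of Myl4 was 0.33 ± 0.57 for TAC against sham, 0.33 ± 0.57 for LD against TAC and 0.65 ± 0.57 for LD against sham. Without LD replicate 3 the differences of LD turned to -0.54 and -0.22.

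Sln (ENSMUSG00000042045.6; chromosome 9, 53850164 to 53854560, plus strand) was barely detected. Its FPKM was 0, 0.265 and 0 in sham, 0, 0.776 and 0 in TAC, and 2.07, 0.638 and 8.02 in LD. All 3 LD libraries lay above all 3 sham libraries, whereas the value of LD replicate 2 was under that of TAC replicate 2. Groups that do not overlap were found for 13.2% of the tested genes in LD against sham, and Sln, with an FPKM of at least 1 in fewer than 3 libraries, was not among the tested genes. The fragments behind these values numbered 0, 2 and 0 in sham, 0, 3 and 0 in TAC, and 8, 6 and 67 in LD. These are the smallest numbers that give all values of Sln, at a recovered length of 520 bases where 1318 are annotated. The true counts may thus be higher, and the limits and intervals that follow narrower. For the libraries at 0, 3 fragments would be an FPKM of 0.637 and 0.775 in sham replicates 1 and 3, and 0.687 and 1.29 in TAC replicates 1 and 3. On these counts LD replicate 2, at 0.638 with a Poisson interval of 0.234 to 1.39, is not distinguishable from the sham libraries by counting error alone. LD replicate 1 had an interval of 0.894 to 4.08. In the fit without a filter Sln differed by 0.16 ± 0.54 for TAC against sham, 1.56 ± 0.54 for LD against TAC and 1.72 ± 0.54 for LD against sham, and by 0.89 and 1.05 in the LD comparisons without LD replicate 3. Because most of its libraries were at 0, the difference of Sln moved with the pseudocount, to 3.93 for LD against sham with 0.1 in place of 1.

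Of the 11380 tested genes, 6 (0.0527%) had LD replicate 3 as their highest library by at least 3-fold over the next one above 0, and Myl7 and Myl4 were among them. The 4 others, named after their values were seen, were Aqp8 (12.1 against 3.91 FPKM), Icam4 (7.35 against 2.22), Ifitm6 (7.25 against 1.74) and Rsph3b (30.6 against 9.76). The coefficient of variation over the 9 libraries was 199% for Myl7, above that of 99.98% of tested genes, and 104% for Myl4, above 98.5%. Sln varied by 199% as well. For Kcnj3, Pam and Tbx5 it was 40.6%, 39.1% and 33.2%, beside a median of 30.9% over the tested genes. The members were chosen with these same values in view. The place of Myl7 and Myl4 among the 6 genes and the ranks by variation are therefore a description and carry no weight as a test.

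Each atrial form was a trace beside its ventricular partner, in every library. Myl7 made up 0.0440, 0.0274 and 0.0814% of the summed FPKM of Myl7 and Myl2 in sham, 0.00417, 0.0418 and 0% in TAC, and 0, 0.0213 and 0.488% in LD. In LD replicate 3, Myl2 was thus 204 times as abundant as Myl7. Myl2 itself, at 8639 FPKM in that library, lay within its range of 6123 to 9674 over all libraries. Myl4 made up 0.0231, 0.0275 and 0.0528% of Myl4 and Myl3 in sham, 0.0499, 0.0409 and 0.0540% in TAC, and 0.0157, 0.0287 and 0.0988% in LD. Myl3 had its highest value in LD replicate 3 too (27260 FPKM), and the share of Myl4 there was 1.83 times that of the next library. Sln made up 0.876% of Sln and Pln in LD replicate 3, 0.236 and 0.0625% in LD replicates 1 and 2, and at most 0.0775% in sham and TAC. Bmp10, a secreted factor of atrial muscle, was listed at 0 in all 9 libraries. The tissue label is heart with no chamber named. Of the atrial markers, Sln was at 0 in 4 libraries and Myl7 in 2, while Myl4 was above 0 in all 9.

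**Figure D2:**
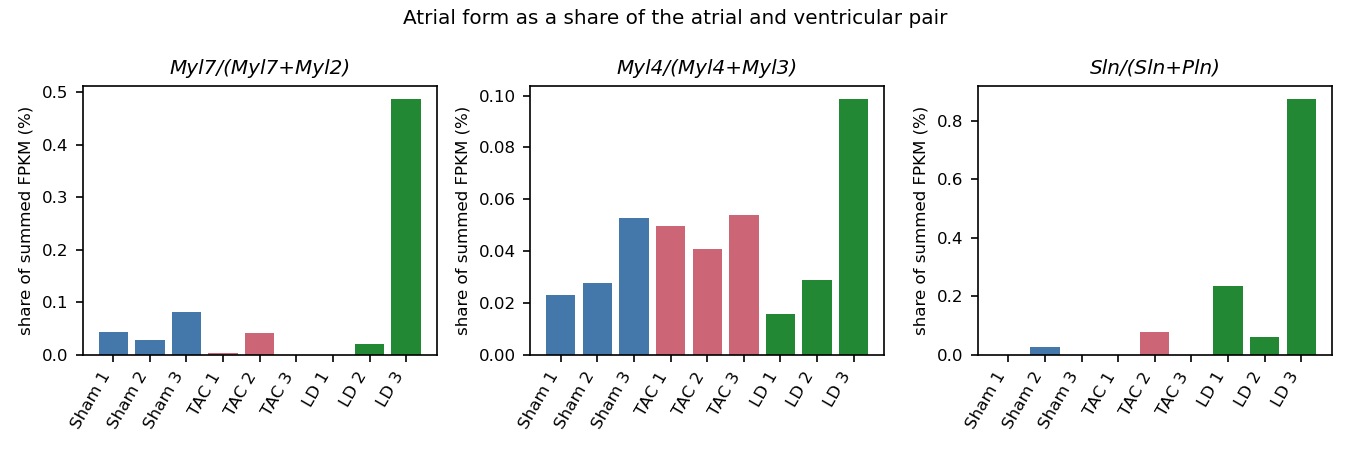
Share of the atrial form in the summed FPKM of each atrial and ventricular pair (y axis, percent, from 0) in the 9 libraries (x axis), coloured by group as in the plot of FPKM by library. All 3 shares are highest in LD replicate 3, at 0.488% for Myl7, 0.0988% for Myl4 and 0.876% for Sln.

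Kcnj3 (ENSMUSG00000026824.11; chromosome 2, 55435970 to 55598145, plus strand) had an FPKM of 7.15, 7.57 and 5.53 in sham, 3.62, 4.47 and 8.49 in TAC, and 5.66, 3.47 and 1.91 in LD. It was lowest in LD replicate 3, and the groups overlapped, since LD replicate 1 lay above sham replicate 3 and TAC replicate 3 above every sham library. With 222 to 803 fragments, counting error was small beside this spread. Means were 6.75 ± 1.08 (SD, n = 3) in sham, 5.53 ± 2.60 in TAC and 3.68 ± 1.88 in LD, with log2 differences of -0.31 ± 0.35 for TAC against sham, -0.49 ± 0.35 for LD against TAC and -0.80 ± 0.35 for LD against sham. Without LD replicate 3 the LD differences of Kcnj3 were -0.19 and -0.50, and without TAC replicate 3 the TAC difference was -0.61. Annotated exons of Kcnj3 share 1621 bases (31.1%) with Gm26794 on the opposite strand. No step that marks the strand is named for these libraries, so reads of the 2 genes cannot be told apart.

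Other genes of the channel and of the vagal signal that opens it were read beside Kcnj3. Kcnj5, which codes for the partner subunit GIRK4, had an FPKM of 7.18, 6.02 and 7.10 in sham, 3.70, 3.40 and 3.56 in TAC, and 7.18, 5.69 and 4.54 in LD. All TAC libraries thus lay under all sham and all LD libraries. Groups did not overlap, in either direction, for 9.84% of tested genes in TAC against sham and 11.9% in LD against TAC. The log2 differences of Kcnj5 were -0.77 ± 0.25 for TAC against sham (adjusted p = 0.772) and 0.56 ± 0.25 for LD against TAC (adjusted p = 0.558). Chrm2, the muscarinic receptor that opens the channel through its G protein, was at 7.25, 6.77 and 6.64 in sham, 4.53, 5.80 and 6.17 in TAC, and 5.41, 4.10 and 3.82 in LD, a log2 difference of -0.55 ± 0.25 for LD against sham. Of 15 tested genes of vagal signalling other than Kcnj3, 1 had an unadjusted p under 0.05 in TAC against sham (Kcnj5, lower), 2 in LD against TAC (Kcnj5, higher, and the G protein gene Gnai3, lower) and 1 in LD against sham (Chrm2, lower), and none passed after adjustment. Over all tested genes 5.43%, 8.82% and 5.11% were under this threshold in the 3 comparisons, so that these counts lie near the background. Over the tested genes of vagal signalling, Kcnj3 included, 7 of 16 had their lowest value in LD replicate 3, the library that was lowest for 31.1% of all tested genes. Without that library Chrm2 no longer had an unadjusted p under 0.05.

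Tbx5 (ENSMUSG00000018263.11; chromosome 5, 119832668 to 119885219, plus strand) had an FPKM of 4.34, 3.09 and 4.96 in sham, 5.07, 2.57 and 2.55 in TAC, and 2.84, 4.20 and 1.88 in LD. Every pair of groups overlapped, and means were 4.13 ± 0.951 (SD, n = 3), 3.40 ± 1.45 and 2.97 ± 1.17. The log2 differences were -0.25 ± 0.32 for TAC against sham, -0.14 ± 0.32 for LD against TAC and -0.39 ± 0.32 for LD against sham. Without LD replicate 3 the difference of Tbx5 in LD against TAC was 0.07. Tbx5 and Myl7, a gene reported as its target, did not keep step, since LD replicate 3 held the lowest value of one and the highest of the other.

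Among 21 tested cardiac transcription factors other than Tbx5, none had an unadjusted p under 0.05 in TAC against sham. In LD against TAC 5 did, all lower in LD (Nr2f2, Hey1, Nr2f1, Tbx20 and Tbx3), and in LD against sham 3 did, also lower (Hey1, Nr2f1 and Tbx3). The shares over all tested genes were 6.31% and 3.59% lower in LD at this threshold. Nr2f2 and Nr2f1 are nuclear receptors that maintain atrial identity. Nr2f2 was at 6.98, 6.38 and 6.88 FPKM in sham, 6.30, 6.98 and 9.33 in TAC, and 6.39, 4.29 and 2.65 in LD, and Nr2f1 at 6.20, 3.77 and 5.48, then 4.12, 4.03 and 5.27, then 3.38, 2.65 and 1.36. Both were lowest in LD replicate 3, the library in which Myl7 and Myl4 were highest. Hey1, a Notch target, had the largest difference of these 3 in LD against sham, at -1.32 ± 0.38 (adjusted p = 0.751). Without LD replicate 3 none of the factors had an unadjusted p under 0.05 in LD against TAC, and 1 (Hey1) in LD against sham.

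Pam (ENSMUSG00000026335.16; chromosome 1, 97795114 to 98095646, minus strand) was the most abundant member per length. Its FPKM was 46.4, 49.4 and 36.6 in sham, 35.4, 85.2 and 93.9 in TAC, and 43.0, 43.0 and 73.0 in LD. TAC replicates 2 and 3 and LD replicate 3 stood above all sham libraries, while TAC replicate 1 was the lowest of the 9 and the 2 other LD libraries lay within the sham range. Means were 44.1 ± 6.70 (SD, n = 3), 71.5 ± 31.6 and 53.0 ± 17.3 in sham, TAC and LD, with log2 differences of 0.58 ± 0.34 for TAC against sham, -0.35 ± 0.34 for LD against TAC and 0.22 ± 0.34 for LD against sham. Without TAC replicate 1 the first of these was 1.02, and without TAC replicate 3 it was 0.32. Of the libraries above the others for Pam, 2 are among the 4 with steps of 0.5 fragments. Within these 4 libraries Pam averaged 89.6 in TAC and 41.5 in sham (2 libraries each), and among the 5 others TAC replicate 1 stood at 35.4, sham replicate 2 at 49.4 and the 3 LD libraries at 43.0 to 73.0. With a term for such steps in the fit, the log2 difference of Pam was -0.00032 for LD against TAC and 0.58 for LD against sham.

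Genes of ventricular stress and of peptide storage were read beside Pam. Nppa, the atrial natriuretic peptide, was at 59.7, 68.8 and 88.4 FPKM in sham, 91.5, 220.0 and 446.7 in TAC, and 188.0, 159.2 and 476.8 in LD. All operated libraries lay above all sham libraries, with TAC replicate 1 (91.5) close to sham replicate 3 (88.4). Over all tested genes groups did not overlap, in either direction, for 9.84% in TAC against sham and 13.2% in LD against sham. The log2 difference of Nppa was 1.53 ± 0.49 for TAC against sham and 1.75 ± 0.49 for LD against sham (limma adjusted p = 0.772 and 0.6997), with 0.22 ± 0.49 between LD and TAC. Pam and Nppa correlated at r = 0.76 and rho = 0.53 over the 9 libraries, and at r = 0.66 without TAC replicates 2 and 3, a description of libraries whose groups differ. Of 7 tested genes of peptide processing and granules other than Pam, Nppa and Nppb had an unadjusted p under 0.05 in both comparisons with sham, each higher than in sham, and none did in LD against TAC. Over all tested genes 2.85% were higher in TAC and 1.52% higher in LD than in sham at this threshold. Among the 5 ventricular stress genes 4 had an unadjusted p under 0.05 in TAC against sham (2 without TAC replicate 3) and 5 in LD against sham (4 without LD replicate 3), all higher than in sham, beside the same shares of 2.85% and 1.52% over all tested genes, with skeletal actin Acta1 the largest at 2.57 ± 0.44 and 2.55 ± 0.44 (adjusted p = 0.129 and 0.145). These 5 genes had their highest value in TAC replicate 3 (3 genes) or LD replicate 3 (2 genes), libraries in which Pam was high too.

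In group comparisons over all genes, limma called 0 of 11380 genes (0%) at an adjusted p under 0.05 in TAC against sham, in LD against TAC and in LD against sham, and no member was called in any of the fits tried. At an unadjusted p under 0.05 the fit held 618 genes (5.43%) in TAC against sham, 1004 (8.82%) in LD against TAC and 581 (5.11%) in LD against sham. Limma's voom on the recovered fragments called 2, 1 and 0 genes after adjustment. The median log2 difference of the 6 members was -0.04, 0.09 and 0.15 in the 3 comparisons, beside medians over all tested genes near 0 in TAC against sham, -0.10 in LD against TAC and -0.11 in LD against sham. Scaling to pan-cardiomyocyte genes moved the latter pair to -0.34 and -0.28, and turned Myl7 in LD against sham to -0.13. Members lay on both sides in each comparison: 3 were above 0 and 3 below in TAC against sham and in LD against TAC, and 4 and 2 in LD against sham. Among the 5 tested members no pair of groups was free of overlap. Over all tested genes groups did not overlap for 9.84% in TAC against sham, 11.9% in LD against TAC and 13.2% in LD against sham. The absence among 5 members is thus not read as particular to them. LD against TAC and TAC against sham share the TAC libraries, and the comparisons with sham share the sham libraries.

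**Figure D3:**
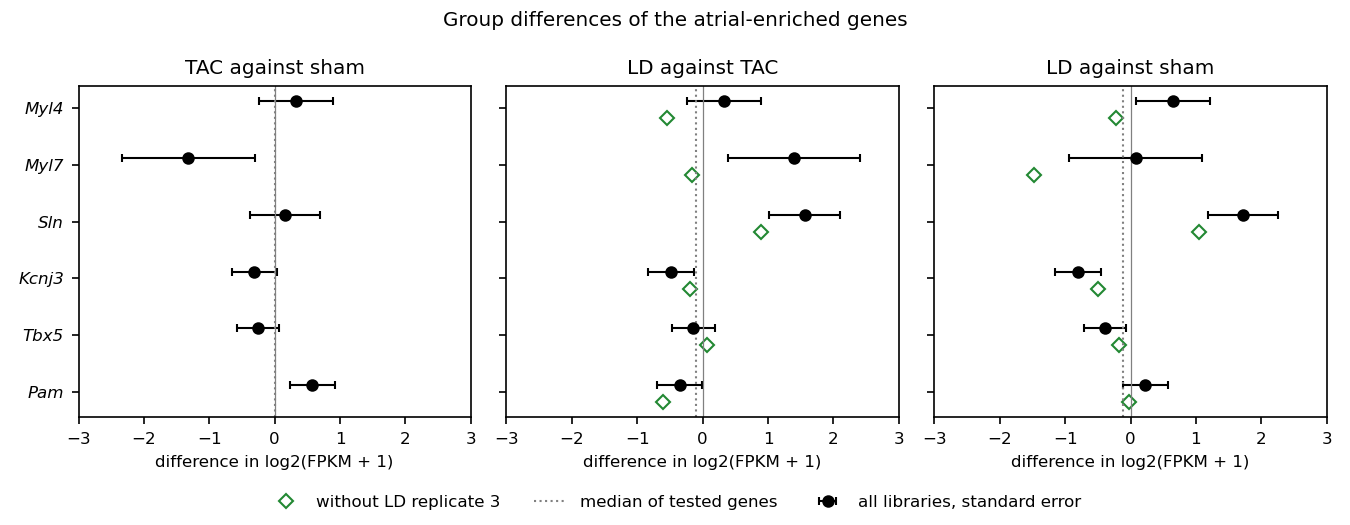
Difference in log2(FPKM + 1) of each member (x axis) in the 3 comparisons (panels), with limma's standard error as bars, and without LD replicate 3 as open diamonds. The dotted line is the median over tested genes. The LD differences of Myl4 move from 0.33 and 0.65 to -0.54 and -0.22 without LD replicate 3.

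Other atrial genes moved in both directions. Of 14 such genes 13 were above 0 in at least 1 library and 10 were tested. In TAC against sham, 4 of the 10 had an unadjusted p under 0.05: Dkk3, a secreted protein (1.47 ± 0.38), and Nppa were higher, and Kcnj5 and the kinase gene Sbk3 (-1.06 ± 0.37) were lower. Over all tested genes 2.85% were higher and 2.58% lower at this threshold. In LD against TAC 3 did, Kcnj5 higher (2.51% of all tested genes) and Nr2f2 and Nr2f1 lower (6.31%). In LD against sham 3 did, Nppa and Dkk3 higher (1.52%) and Nr2f1 lower (3.59%). The median of the 13 detected genes was -0.23, 0.07 and -0.21 in TAC against sham, LD against TAC and LD against sham. Without LD replicate 3 the numbers under the threshold were 4, 1 and 1, and without TAC replicate 3 they were 3, 0 and 4.

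In LD replicate 3 itself, 1 of the 10 tested other atrial genes had its highest value (Nppa) and 2 their lowest (Nr2f1 and Nr2f2). Mybphl, a myosin-binding protein of the atria, was under the filter and was at 1.47, 0.216 and 0 FPKM in sham, 0 in all 3 TAC libraries, and 0, 0.347 and 3.37 in LD. Mybphl was thus highest in LD replicate 3, as Myl7 was, and listed at 0 in 5 libraries. Over all tested genes, LD replicate 3 was the lowest of the 9 libraries for 31.1% and the highest for 10.2%. The share of all tested genes outside the sham range in that library was not computed. The counts that follow are thus not read as particular to atrial genes. Against the range of the 3 sham libraries, 4 of the 13 detected other atrial genes lay above it in LD replicate 3, 8 below it and 1 within it. Those above were Nppa (476.8 FPKM, with 59.7 to 88.4 in sham), Dkk3 (6.12, with 0.878 to 1.69), Mybphl and Stard10 (52.5, with 50.2 to 51.9). Among those below were Kcna5 (13.4, with 19.9 to 21.8), Sbk2 (0.629, with 1.10 to 2.35) and Gja5 (2.45, with 3.94 to 4.72). The others were Sbk3, Kcnj5, Cacna1d, Nr2f1 and Nr2f2. Which cells of the heart these transcripts came from was not tested.

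**Figure D4:**
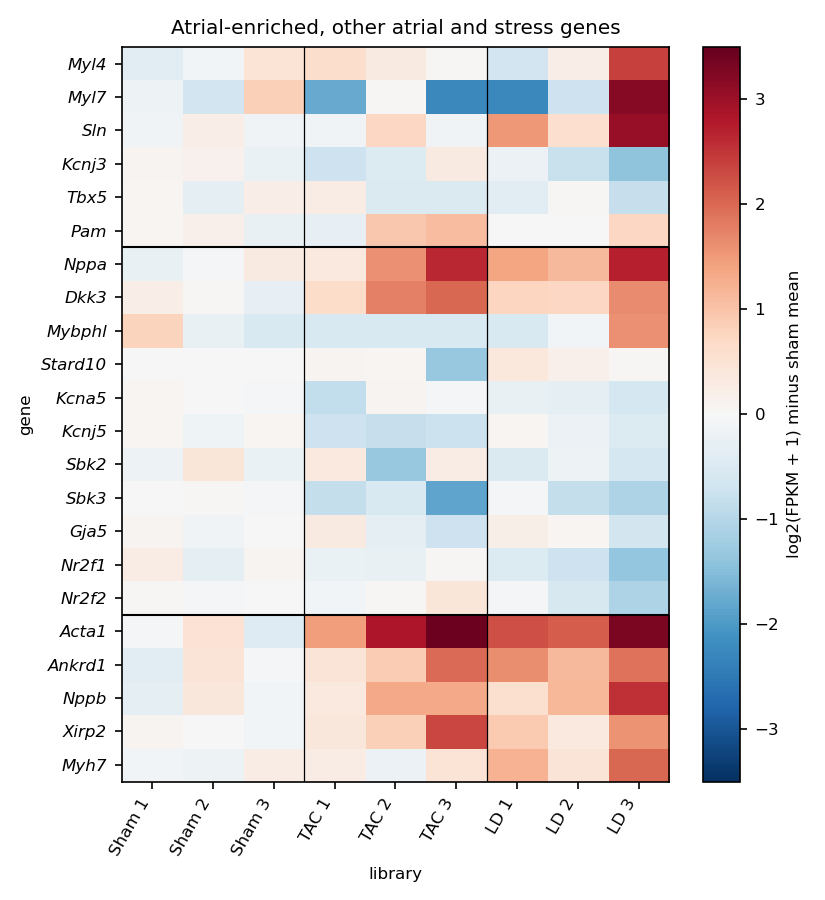
Value of log2(FPKM + 1) minus the sham mean (colour) for the 6 members (top block), 11 other atrial genes (middle block) and 5 ventricular stress genes (bottom block) in the 9 libraries (x axis). Myl4, Myl7, Sln, Mybphl and Nppa are among the genes highest in LD replicate 3, and Kcnj3, Tbx5, Nr2f1 and Nr2f2 are lowest there.

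Markers of tissues that could have come with a heart were read library by library. Of 8 lung genes 7 were at 0 everywhere, among them Sftpc, Sftpa1 and Scgb1a1, as were 4 of 5 thymus genes, Rag1 and Ptcra included. The sinus node factor Isl1 was at 0 in every library. Of 8 fat genes the defining marker Plin1 was at 0 everywhere, whereas Adipoq was at 1.72 FPKM in LD replicate 3, 1.45 in TAC replicate 3 and 0 in the 7 others. The summed FPKM of the list ran from 23.6 to 27.2 in sham, 17.3 to 29.0 in TAC and 20.4 to 35.2 in LD. Most of that sum was 1 gene, Cidea, at 22.0 to 24.2 in sham, 14.3 to 26.8 in TAC and 17.0 to 33.7 in LD, so it is no measure of fat tissue. For 10 neuronal and Schwann cell genes the sum ran from 26.2 to 37.5 in sham, 37.9 to 44.5 in TAC and 39.8 to 53.2 in LD, so that it was higher in all operated libraries, and Sox10 was highest in LD replicate 3 (4.36, next 2.23). Summed FPKM of 11 nodal and conduction genes ran from 32.0 to 38.7 in sham, 37.0 to 52.0 in TAC and 29.9 to 37.8 in LD. Its largest part was Smoc2, with means of 18.6, 31.7 and 25.1 in sham, TAC and LD, followed by Tbx3 with 12.0, 10.8 and 6.71. In TAC against sham 3 of the 9 detected genes of this list were higher and 6 lower, so the sum is no measure of conduction tissue. The summed FPKM of 10 fast skeletal muscle genes ran from 3.55 to 9.55 in sham, 2.38 to 11.7 in TAC and 5.28 to 9.12 in LD. For 10 mesothelial and epicardial genes it ran from 9.36 to 9.64 in sham, 7.26 to 16.5 in TAC and 7.97 to 12.9 in LD. Within that list LD replicate 3 held the highest values of Msln (4.22 FPKM, next 1.20) and Krt18 (5.21, next 2.59) and the lowest of Wt1 (0.645, with 4.25 to 6.54 in sham), and the part of these lists in the values of the members was not tested.

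Likeness between members was read as the correlation of their log2 values over the 9 libraries. Myl4 and Myl7 correlated at r = 0.80 and rho = 0.54, at r = 0.35 without LD replicate 3, and at r = 0.02 without LD replicates 1 and 3, the libraries farthest from the median of Myl4. Myl4 and Kcnj3 ran opposite, at r = -0.81 and rho = -0.72, and at r = -0.72 without the same libraries. Tbx5 and Pam had r = -0.82 and rho = -0.87, and r = -0.70 without sham replicate 3 and TAC replicate 1. These are the members' own 15 pairs in 9 libraries of 3 groups, chosen with the values known, and carry no p.

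The genes most like each member were sought among 11002 tested genes by Pearson's r over the 9 libraries, where 1% of genes reached 0.75 for Myl4 and 0.91 for Kcnj3. Nearest to Myl4 were Adgrd1 (r = 0.95), Clu, Sptb, Tnnt2 and Hspb1 (0.90), and opposite ran Ndn (-0.99) and Gtpbp4 (-0.97). For Myl7 they were Fam185a (0.94), Tnnt2, Acbd6, D10Jhu81e and Aurkaip1 (0.90), with Ipo9 and Fchsd2 opposite (both -0.95). Each of the 5 genes nearest to Myl4 and of the 5 nearest to Myl7 had its highest value in LD replicate 3, as the light chains had. Choosing genes by r with profiles that peak in LD replicate 3 favours such genes, so this peak is no separate result. Without that library r fell to 0.81 for Adgrd1 with Myl4 and to 0.85 for Fam185a with Myl7. Nearest to Sln were Srp54b (0.93), Katnal1, Ddx54, Scfd2 and Them6, and Numb ran opposite.

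Kcnj3 was most like Vav2 (0.98), Med13, Larp4, D5Ertd579e and Zfp266 (0.96), and least like Nudt17 (-0.95) and Rhd. Tbx5 was most like Fam73b (0.97), Ucp3, Spon2, Slc4a2 and Snapc4, and least like Bex1 (-0.96) and Ptn. Pam was most like Mpc1 (0.97), Ugp2, Dnajc3, Arpc5l and Gmnn, and least like Dolpp1 (-0.98) and Snf8. Of the genes named for Kcnj3 and Pam, r without LD replicate 3 was still 0.95 for Vav2 with Kcnj3 and 0.97 for Mpc1 with Pam. The mean of the members' centred log2 values was most like Acbd6 (0.97), Tnnt2, Ifitm6, Fem1a and Aurkaip1, and least like Stard8 (-0.98) and Mitd1.

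By mean FPKM in sham, the order of the members was Pam (44.1), Kcnj3 (6.75), Myl4 (4.50), Myl7 (4.23), Tbx5 (4.13) and Sln (0.0883). Myl4, Myl7 and Tbx5 did not differ beyond their spread, and Kcnj3 overlapped with Myl4 and Myl7, while Pam lay above and Sln below every other member in each sham library. In LD the order was Pam (53.0), Myl7 (14.7), Myl4 (11.5), Kcnj3 (3.68), Sln (3.58) and Tbx5 (2.97), and in TAC Pam (71.5), Myl4 (5.78), Kcnj3 (5.53), Tbx5 (3.40), Myl7 (1.43) and Sln (0.259). The places of Myl7 and Myl4 in LD came from LD replicate 3, since without it their means were 0.938 and 3.81.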

How the data were processed

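Poly-A RNA of the hearts of 9 mice was sequenced, in 3 groups of 3 taken from the sample titles. Per the submitters' processing notes the tools were Cufflinks 2.2.1, DESeq, HTSeq 0.7.2, fastp 0.20.0, HISAT2 2.1.0 and CASAVA 1.8, on GRCm38. No source says which tool made which value. The authors deposited FPKM values, 1 column per library, and 0 columns were left unmatched.

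For all 16262 genes above 0, FPKM values fell on steps worth 1 fragment, or 0.5 fragments in 4 libraries, within a tolerance of 0.001, which gave library totals and fragments. The fragments of a gene are the smallest numbers that give all its values, so true counts can be a multiple of them. Recovered lengths need not equal annotated ones. They lay within 25% of the annotated exon length for 42.8% of 15593 genes. Depth limits take 3 fragments, at a confidence level of 95% for the Poisson intervals, and steps of 0.5 fragments make the count of fragments uncertain in 4 libraries.

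The 11380 genes that reached an FPKM of 1 in 3 or more of the 9 libraries were fitted with limma 3.58.1 in R 4.3.3, on log2(FPKM + 1), with 1 mean per group, empirical Bayes with a trend, two-sided moderated tests and Benjamini-Hochberg adjustment. The fit was tested on simulated data. The members and gene lists were chosen with earlier results of these data known. Named were all members, up to 4 genes of smallest p per list and comparison with an unadjusted p under 0.05, the defining markers of a list, and the 5 most and 2 least like genes of each member. Some genes that this rule names are not reported here. Other list members given with values (Kcna5, Sbk2, Gja5, Stard10, Mybphl, Msln, Krt18, Cidea) were named after their values were seen, as were Aqp8, Icam4, Ifitm6 and Rsph3b. Positions are from GENCODE M21 and start regions from RefSeq, both GRCm38. Alternatives changed the pseudocount, filter, scaling, fit and libraries.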

Additional observations from a re-analysis of the deposited data

How the results depend on the processing

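No gene passed the adjusted threshold in the reported fit. In TAC against sham 2 genes passed after scaling to pan-cardiomyocyte genes, 9 with array weights, 2 with voom and 0 to 13 when 1 library was left out (13 without TAC replicate 1). In LD against TAC 1 passed with voom and 0 when 1 library was left out. In LD against sham 3 passed after upper quartile scaling, 10 with only the compared groups fitted, 135 with array weights, which gave LD replicate 2 a weight of 4.74 and LD replicate 3 one of 0.397, and 0 to 8 when 1 library was left out. The median of the other atrial genes in TAC against sham was -0.39 with a pseudocount of 0.1, -0.31 after upper quartile scaling, -0.33 with voom and -0.31 to -0.14 when 1 library was left out. In LD against TAC it was 0.22 with that pseudocount, -0.076 after pan-cardiomyocyte scaling, 0.26 with voom, 0.14 without TAC replicate 3 and LD replicate 3, and -0.032 to 0.075 when 1 library was left out. In LD against sham it was -0.10 after median-of-ratios scaling, -0.071 after quantile normalization, -0.34 after pan-cardiomyocyte scaling, -0.28 without both libraries, and -0.33 to -0.17. The members' median in LD against sham ran from -0.20 to 0.79 when 1 library was left out, with the highest value without LD replicate 1. As shares of fragments in place of FPKM, Myl4 made up 0.0791, 0.111 and 0.109% of Myl4 and Myl3 in sham, TAC and LD, the LD mean of the Myl7 share fell from 0.170 to 0.105% and that of the Sln share from 0.391 to 0.0825%, since fragments are not divided by length. The causes of the other shifts were not tested.

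Of 450 member differences recomputed, 439 moved by less than 1 SD and 11 by more, 7 of them for Sln. The SD was each member's own spread within groups, so large shifts of variable members stayed under it. Myl7 in LD against sham ran from -1.48 to 1.24 and never counted as moved. Changes of filter, trend or robust fitting, the replicate block and libraries outside a comparison could not move a difference. The tally is therefore no measure of stability. Without TAC replicate 3 and LD replicate 3, LD against TAC was -0.69 for Myl4, -0.62 for Myl7, 0.75 for Sln and 0.12 for Kcnj3. With the presence of steps of 0.5 fragments as a term, an alternative chosen after seeing the data, Myl7 differed by 1.95 and Pam by -0.00032 in LD against TAC. Same-numbered libraries deviated together at r between -0.236 and 0.146, and differently numbered ones at r between -0.269 and 0.37. These values cannot show whether mice shared a litter or an operation day. With the replicate number as a block 0 genes passed in each comparison. The members' medians were again -0.04, 0.09 and 0.15, which was fixed in advance because each replicate number occurs once in each group. Depth limits Myl7 and Sln most.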
